A study of Mus musculus with 6 samples.

Results

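The 10 genes described here encode the core of Polycomb repressive complex 2 (Ezh2, Ezh1, Eed and Suz12) and the enzymes that write, maintain and oxidise DNA methylation (Dnmt1, Uhrf1, Dnmt3a, Dnmt3b, Tet1 and Tet2). They were chosen by name among the 56196 genes of the table, all 10 were matched by symbol, and all 10 were among the 15361 genes that passed the filter on low counts. Polyadenylated RNA was sequenced from mouse osteosarcomas of 2 genotypes. The TKO tumours (3) were Osx1-Cre;Rb1lox/lox;p53lox/lox;SKP2-/- and the DKO tumours (3) were Osx1-Cre;Rb1lox/lox;p53lox/lox. Both groups therefore carried the same Cre and the same floxed Rb1 and p53 alleles, and SKP2-/- was the only difference between their genotype labels. Osx1-Cre is active in the osteoblast lineage, so the other cells of a tumour keep Rb1 and p53. Replicate 1 of each group was a male and replicates 2 and 3 were females. The labels give no age and no treatment, and they do not tie the tumours of the 2 groups to shared litters.

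Polycomb repressive complex 2 (PRC2) methylates lysine 27 of histone H3. EZH2 or its paralogue EZH1 is the catalytic subunit, SUZ12 holds the complex together, and EED binds the trimethylated mark and stimulates the enzyme. EZH2 is known as the form of dividing cells and EZH1 as the form that persists in resting cells. DNA methylation is copied at the replication fork by DNMT1, which UHRF1 brings to hemimethylated sites, while DNMT3A and DNMT3B methylate new sites and TET1 and TET2 oxidise 5-methylcytosine. Ezh2, Dnmt1 and Uhrf1 are known targets of E2F transcription factors, which the Rb1 product restrains. The SKP2 protein is the substrate-binding subunit of a ubiquitin ligase that marks p27 for degradation.

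Each library held between 17063231 and 22488819 gene counts, and levels are given as CPM, the gene counts scaled to a common library size. Values of single tumours are given in the order of replicates 1, 2 and 3. Skp2 had 0 counts in each TKO tumour, against 20, 64 and 46 counts in the DKO tumours. The TKO tumours were less alike than the DKO tumours: log2 CPM of TKO1 correlated across genes at 0.830 and 0.805 with TKO2 and TKO3, TKO2 and TKO3 at 0.915, and the DKO pairs at 0.933 to 0.954. Markers of several other cell types differed between the groups. Of 12 macrophage markers 11 were higher in TKO (edgeR quasi-likelihood test, adjusted p under 0.05), with a summed level of 1032 to 2974 CPM in TKO and 9.56 to 126 CPM in DKO, and C1qa, C1qb and C1qc were at 0 in every DKO library. All 8 endothelial markers were higher in TKO (172 to 859 CPM in TKO, 9.04 to 10.5 CPM in DKO), as were 8 of 9 skeletal muscle markers (499 to 10553 CPM in TKO, 4.78 to 12.1 CPM in DKO). Markers at or near 0 in DKO passed the filter on low counts through their TKO levels, which leaves 1 direction open to them. With a filter of 1 CPM in a library of each group the counts of macrophage, endothelial and muscle markers called were 2, 1 and 1. They were 6, 0 and 0 without DKO1, 1, 0 and 0 without DKO2, and 0 each without DKO3, where 39, 2 and 0 of all genes were called, and limma-voom called 2 of the muscle markers. Summed erythroid markers were at 88.8 to 1167 CPM in TKO and 0.498 to 1.28 CPM in DKO. For B and plasma cell markers the ranges were 56.0 to 142.5 CPM in TKO and 0.356 to 0.398 CPM in DKO. For T and NK cell markers they were 2.00 to 18.8 CPM in TKO and 0 to 0.178 CPM in DKO. Of the osteoblast markers none of 7 tested passed (1 at an unadjusted p under 0.05, 1 called by DESeq2 and 3 called without TKO1), and they went with the label in part. Runx2 had 58.4, 137 and 242 CPM in the TKO tumours, against 97.1, 83.3 and 95.1 CPM in the DKO tumours, and Spp1 had 2911, 1200 and 4848 CPM in the TKO tumours, against 1612, 567 and 251 CPM in the DKO tumours. Both were present in all tumours. Sp7 had 0, 206 and 433 CPM in the TKO tumours, against 7.97, 0 and 0.416 CPM in the DKO tumours, and Col1a1 had 209, 30231 and 26908 CPM in the TKO tumours, against 11757, 11220 and 9947 CPM in the DKO tumours. TKO1 thus held no Sp7 count and little Col1a1, and the 3 DKO tumours had Col1a1 with little or no Sp7. Alpl had 0.0834, 1526 and 2045 CPM in the TKO tumours, against 8.76, 0.766 and 18.05 CPM in the DKO tumours. Summed fibroblast and mesenchymal markers were at 1158, 10321 and 3941 CPM in the TKO tumours, against 15263, 6837 and 11965 CPM in the DKO tumours. None of the 7 tested passed by edgeR, with 2 at an unadjusted p under 0.05. The muscle marker Myog had 115, 4.92 and 2.96 CPM in the TKO tumours and 0 in every DKO tumour, whereas the summed muscle markers were lowest in TKO1 among the TKO tumours (499 CPM). The endothelial marker Emcn and the erythroid markers Hbb-bs and Hbb-bt were likewise at 0 in every DKO library. The part of these cell types in the values below was not tested, nor was whether fewer cells of a type or less RNA per cell gave a level. The macrophage, endothelial, muscle and erythroid levels went with the SKP2-/- label in every tumour, so label and cell mix cannot be told apart.

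Promoter windows from RefSeq (GRCm38.p6, 250 bases before to 50 bases after an annotated start, read along the gene's strand) were available for all 10 genes, 15 windows in all. They were searched on both strands for 4 E2F motifs (TTTCCCGC, TTTGGCGC, TTTCGCGC and TTTGCCGC). Ezh2, Suz12, Dnmt1 and Uhrf1 held at least 1, which is 4 of the 10 genes, whereas 2.27% of all 32851 windows of this length and 2.61% of the 27025 genes with a window did. The windows that held a motif are printed. The 10 genes were chosen by name and include known E2F targets, so this share is given as a description. Capitals mark the E2F motif.
Ezh2, chr6:47594981-47595280, minus strand: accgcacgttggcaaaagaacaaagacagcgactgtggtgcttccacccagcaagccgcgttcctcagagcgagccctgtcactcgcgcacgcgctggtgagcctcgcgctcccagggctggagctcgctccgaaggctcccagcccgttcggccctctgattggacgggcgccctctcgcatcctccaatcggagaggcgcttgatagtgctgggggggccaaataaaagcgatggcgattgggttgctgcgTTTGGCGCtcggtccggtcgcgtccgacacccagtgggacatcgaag
Suz12, chr11:79992856-79993155, plus strand: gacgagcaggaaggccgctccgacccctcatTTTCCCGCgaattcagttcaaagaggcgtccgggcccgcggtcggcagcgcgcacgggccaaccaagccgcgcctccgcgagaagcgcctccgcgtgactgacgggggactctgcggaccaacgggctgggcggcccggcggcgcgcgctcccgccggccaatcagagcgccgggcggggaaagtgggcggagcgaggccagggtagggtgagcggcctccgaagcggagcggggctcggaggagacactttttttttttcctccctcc
Dnmt1, chr9:20952574-20952873, minus strand: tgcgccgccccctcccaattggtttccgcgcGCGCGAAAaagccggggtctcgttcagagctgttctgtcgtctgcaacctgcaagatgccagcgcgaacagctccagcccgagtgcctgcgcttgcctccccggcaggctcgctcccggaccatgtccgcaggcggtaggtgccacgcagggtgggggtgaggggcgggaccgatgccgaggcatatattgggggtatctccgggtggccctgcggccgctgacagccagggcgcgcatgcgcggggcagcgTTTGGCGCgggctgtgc
Uhrf1, chr17:56304063-56304362, plus strand: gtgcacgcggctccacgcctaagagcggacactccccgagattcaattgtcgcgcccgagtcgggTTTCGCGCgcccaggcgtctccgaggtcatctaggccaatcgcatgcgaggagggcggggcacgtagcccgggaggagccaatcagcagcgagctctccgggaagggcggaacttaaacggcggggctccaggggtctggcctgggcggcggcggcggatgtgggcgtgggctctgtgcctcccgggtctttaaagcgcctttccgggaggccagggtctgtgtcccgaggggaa
The motif TTTGGCGC began 3 bases downstream of the annotated start of Ezh2, and the same letters began 33 bases downstream of the start of Dnmt1. In the Dnmt1 window a second motif lay on the other strand (printed as GCGCGAAA), 219 bases upstream of the start. TTTCCCGC lay 219 bases upstream of the Suz12 start and TTTCGCGC 185 bases upstream of the Uhrf1 start. None of these overlapped a CCAAT box, a motif of many cell cycle promoters that 37.4% of all windows hold and that was present in each of the 4 windows. The 4 windows had a GC content of 64.3% to 71% and an observed over expected CpG ratio of 0.91 to 1.09, against medians of 52.7% and 0.384 over all windows. Dnmt1 and Uhrf1 also have other annotated starts, whose windows held no E2F motif, and neither did those of Ezh1, Eed, Dnmt3a, Dnmt3b, Tet1 and Tet2. Of 16 replication genes with a window, 7 held an E2F motif. These are matches of letters, and binding was not measured.

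The comparison of TKO with DKO tumours asks how these 10 genes differ where Skp2 is lost in addition to Rb1 and p53. No member passed the threshold (0 of 10 at an adjusted p under 0.05 by edgeR's quasi-likelihood test), whereas 7.36% of all 15361 genes tested did, 4.89% higher and 2.47% lower in TKO. At an unadjusted p under 0.05 there were 0 of 10 members, beside 25.0% of all genes tested, and the counts of this kind for the lists below stand beside the same share. By DESeq2, which called 18.8% of the genes tested, 0 members passed, and Dnmt3a was the single one at an unadjusted p under 0.05. With limma-voom 0 passed and Dnmt1 was the single one at an unadjusted p under 0.05. The groups did not overlap for 3 of the 10 members, Ezh2 above and Dnmt1 and Tet2 below, beside 32.9% of all genes tested. The members' median log2 fold change was -0.15, against 0.09 over all genes tested. In simulated data the edgeR test called 16% of genes changed 4-fold, so a member that did not pass is not shown to be unchanged.

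**Figure D1:**
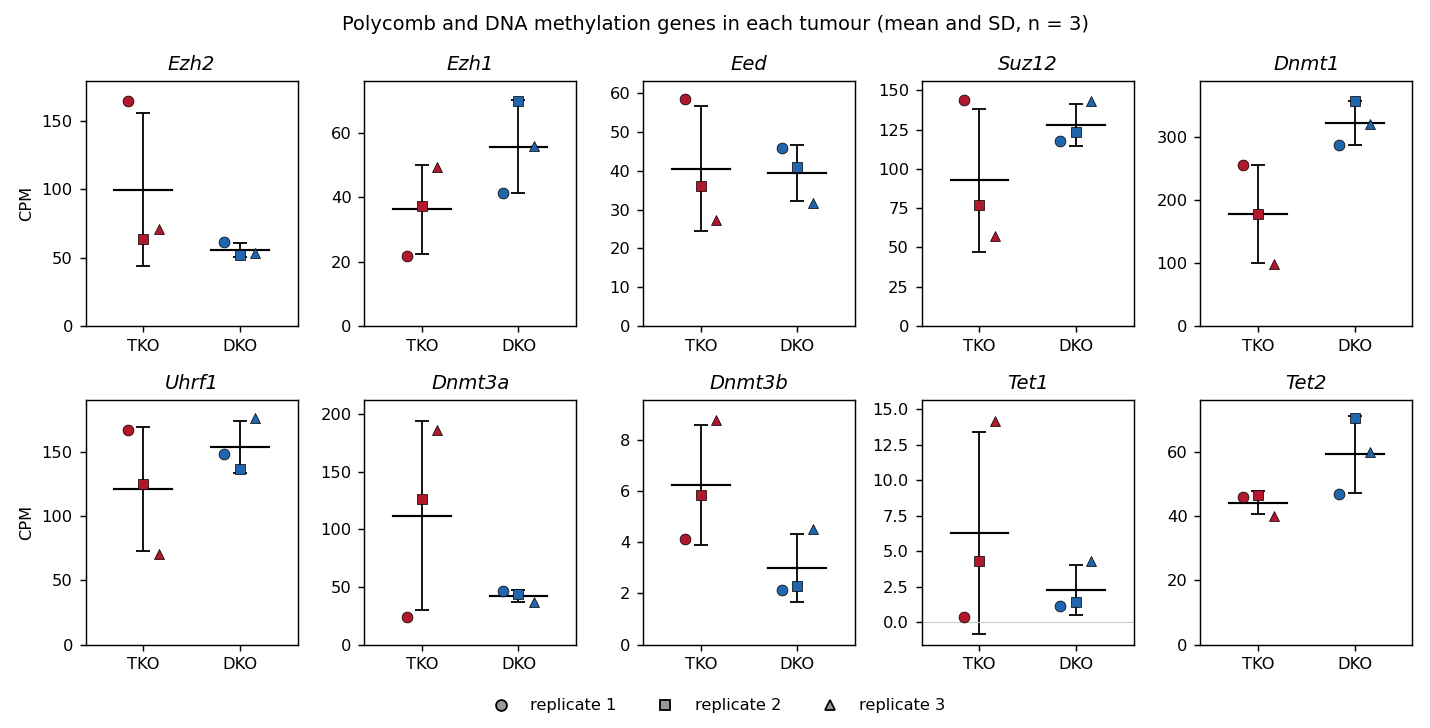
CPM of the 10 genes in each tumour, TKO at the left and DKO at the right of each panel, with the vertical axis scaled per gene. Points are single tumours, lines are means and bars are SD (n = 3). For Ezh2 the 3 TKO tumours sit between 63.7 and 164 CPM, above the 51.8 to 61.3 CPM of the DKO tumours, and for Dnmt1 they sit below the DKO tumours.

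Ezh2 (ENSMUSG00000029687.16, chromosome 6, 47530139 to 47595341) had 164, 63.7 and 71.0 CPM in the TKO tumours, against 61.3, 51.8 and 53.7 CPM in the DKO tumours. All 3 TKO tumours lay above all 3 DKO tumours, and TKO1 lay far above the other TKO tumours. The means were 99.7 ± 56.2 CPM in TKO and 55.6 ± 5.01 CPM in DKO (SD, n = 3 each), a log2 fold change of 0.84 (SE 0.41, 95% interval -0.12 to 1.81) that did not pass (edgeR adjusted p = 0.252). Without TKO1 the log2 fold change was 0.27 (95% interval -0.28 to 0.82, adjusted p = 0.463).

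Ezh1 (ENSMUSG00000006920.14, chromosome 11, 101191115 to 101226463), the paralogue of resting cells, ran the other way within TKO. It had 21.7, 37.5 and 49.6 CPM in the TKO tumours, against 41.4, 70.1 and 55.9 CPM in the DKO tumours. TKO1, the tumour with the most Ezh2, held the least Ezh1, and TKO3 lay within the DKO range. The log2 fold change was -0.62 (SE 0.38, 95% interval -1.53 to 0.28), not past the threshold (edgeR adjusted p = 0.357).

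The scaffold subunit Suz12 (ENSMUSG00000017548.15, chromosome 11, 79993106 to 80034123) had 144, 77.1 and 57.3 CPM in the TKO tumours, against 118, 124 and 143 CPM in the DKO tumours. TKO1 was the highest tumour of all 6, whereas TKO2 and TKO3 were below every DKO tumour, so the groups overlapped through TKO1 alone. The log2 fold change was -0.47 (SE 0.38, 95% interval -1.36 to 0.43, edgeR adjusted p = 0.482), and -0.94 without TKO1 (95% interval -1.55 to -0.32), where its adjusted p of 0.0564 missed the threshold. Eed (ENSMUSG00000030619.10, chromosome 7, 89954654 to 89980983), the subunit that reads the mark, had 58.5, 36.1 and 27.2 CPM in the TKO tumours, against 45.9, 41.1 and 31.7 CPM in the DKO tumours. The highest and the lowest value were both in TKO, and the log2 fold change was 0.04 (95% interval -0.81 to 0.89), which is wide enough to hold changes of either sign. Eed overlaps a gene on the opposite strand, and 7.38% of its reads in the strand columns were dropped as ambiguous from the counts used here. For the other 9 members that share was at most 0.129%.

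Of the pair that maintains methylation, Dnmt1 set the groups apart and Uhrf1 did not. Dnmt1 (ENSMUSG00000004099.16, chromosome 9, 20907209 to 20959888) had 255, 179 and 99.0 CPM in the TKO tumours, against 287, 358 and 322 CPM in the DKO tumours. Every TKO tumour lay below every DKO tumour, with TKO1 nearest to them. The means were 178 ± 78.1 CPM in TKO and 322 ± 35.3 CPM in DKO (SD, n = 3 each), and the log2 fold change was -0.86 (SE 0.38, 95% interval -1.76 to 0.05), which did not pass (edgeR adjusted p = 0.219). Without TKO1 it was -1.22 (SE 0.33), with an adjusted p of 0.0582. Uhrf1 (ENSMUSG00000001228.14, chromosome 17, 56303321 to 56323486) had 168, 125 and 70.8 CPM in the TKO tumours, against 149, 137 and 177 CPM in the DKO tumours. TKO1 lay among the DKO tumours and the other two TKO tumours below them, and the log2 fold change was -0.34 (95% interval -1.19 to 0.50, edgeR adjusted p = 0.587).

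Dnmt3a (ENSMUSG00000020661.15, chromosome 12, 3806007 to 3914443), a de novo methyltransferase, had 23.7, 126 and 186 CPM in the TKO tumours, against 46.9, 43.7 and 36.7 CPM in the DKO tumours. TKO2 and TKO3 were far above the DKO tumours and TKO1 was below them. With all tumours the log2 fold change was 1.40 (SE 0.66, 95% interval -0.18 to 2.98) and did not pass (edgeR adjusted p = 0.243). Without TKO1 it was 1.87 (SE 0.27, 95% interval 1.23 to 2.52) and passed (adjusted p = 0.0107), in a comparison that called 14.6% of 16384 genes. In these libraries the summed osteoblast markers were at 4292, 54540 and 80743 CPM in the TKO tumours, against 24543, 17189 and 15973 CPM in the DKO tumours, and the macrophage markers at 1032, 2974 and 2739 CPM in the TKO tumours, against 9.56, 126 and 93.0 CPM in the DKO tumours; their part in the Dnmt3a level was not tested. Dnmt3a was the single member called without TKO1, and with any other tumour left out its log2 fold change lay between 0.83 and 1.46 with adjusted p of 0.358 to 0.494.

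Dnmt3b (ENSMUSG00000027478.15, chromosome 2, 153649450 to 153687730), the other de novo enzyme, was low, with 4.13, 5.83 and 8.77 CPM in the TKO tumours, against 2.14, 2.30 and 4.51 CPM in the DKO tumours. TKO1 lay just under DKO3, and the other values were higher in TKO. Its log2 fold change was 1.06 (SE 0.57, 95% interval -0.28 to 2.41, edgeR adjusted p = 0.296). Tet1 (ENSMUSG00000047146.17, chromosome 10, 62804570 to 62908996) rested on few reads: 9, 89 and 278 counts in the TKO tumours, against 23, 27 and 72 counts in the DKO tumours. In CPM that was 0.375, 4.29 and 14.2 in the TKO tumours, against 1.14, 1.38 and 4.27 in the DKO tumours, with both extremes in TKO. The log2 fold change of Tet1 was 1.47 with an SE of 1.19 (95% interval -1.34 to 4.28, edgeR adjusted p = 0.482), and 0.05 without TKO3.

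Tet2 (ENSMUSG00000040943.12, chromosome 3, 133463679 to 133545139) had the smallest SD of log2 CPM among the TKO tumours, with 46.1, 46.8 and 40.2 CPM in the TKO tumours, against 47.0, 70.9 and 60.3 CPM in the DKO tumours. The groups did not overlap, but TKO2 and DKO1 differed by little. Its log2 fold change was -0.42 (SE 0.26, 95% interval -1.05 to 0.20, edgeR adjusted p = 0.369).

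Compared per kilobase of all annotated exon bases of a gene, the maintenance pair led in both genotypes. The order of genes therefore depends on the annotation as well. In TKO the mean levels ran from Uhrf1 (28.5 CPM per kb), Dnmt1 (24.1), Suz12 (18.7), Ezh2 (14.9) and Eed (10.6) to Dnmt3a (6.73), Ezh1 (4.87), Tet2 (2.63), Dnmt3b (1.22) and Tet1 (0.406). In DKO they ran from Dnmt1 (43.7 CPM per kb), Uhrf1 (36.2), Suz12 (25.9), Eed (10.3), Ezh2 (8.32) and Ezh1 (7.50) to Tet2 (3.52), Dnmt3a (2.55), Dnmt3b (0.584) and Tet1 (0.147). In TKO the SD of Uhrf1, Dnmt1, Suz12, Ezh2 and Eed (4.21 to 11.4 CPM per kb) was about as wide as or wider than the gaps between neighbours in that order, so their order there is not firm. The place of Dnmt3a in TKO (SD 4.94) rests on TKO2 and TKO3, since in TKO1 it had 1.42 CPM per kb, below Ezh1 (2.92) and Tet2 (2.73). In DKO Dnmt1 and Uhrf1 had SDs of 4.79 and 4.82 CPM per kb and their means differed by less than the sum of these. The same held in DKO for Eed and Ezh2 (SDs 1.88 and 0.75) and for Ezh2 and Ezh1 (SDs 0.75 and 1.93).

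**Figure D2:**
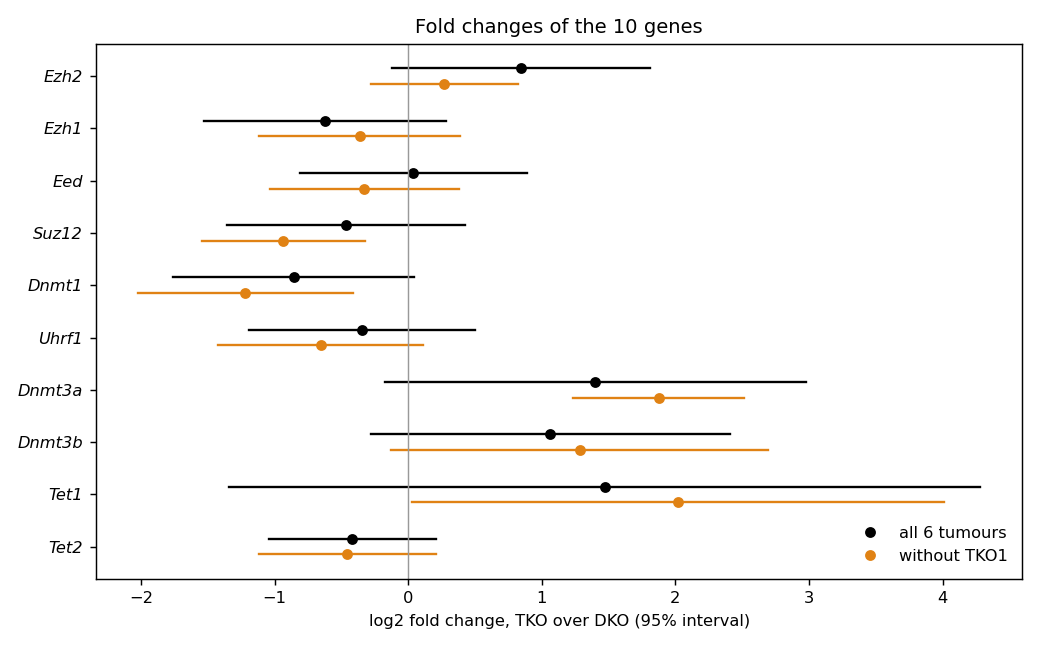
Log2 fold change of TKO over DKO for the 10 genes with 95% intervals from edgeR's fit, with all 6 tumours (black) and without TKO1 (orange). Every black interval includes 0, and without TKO1 those of Suz12, Dnmt1, Dnmt3a and Tet1 exclude it, that of Tet1 only just (0.02 to 4.01).

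Of the 10 members 9 had either their highest or their lowest TKO value in TKO1, and Tet2 had neither there. The share of all genes tested with such a value in TKO1 was not counted. TKO1 was also the least alike of the TKO tumours across all genes, so the count is not read as particular to the members. Relative to the DKO mean, Ezh2 was higher by 1.57 log2 units in TKO1, 0.20 in TKO2 and 0.36 in TKO3. Dnmt3a was -0.83, 1.58 and 2.14, and Tet1 -2.08, 1.13 and 2.83 log2 units from the DKO mean in TKO1, TKO2 and TKO3. Ezh2, Eed, Suz12, Dnmt1 and Uhrf1 each had their highest TKO value in TKO1, and Ezh1, Dnmt3a, Dnmt3b and Tet1 had their lowest there and their highest in TKO3. Of the 10 members 8 had a larger SD of log2 CPM in TKO than in DKO, beside 68% of all genes tested. The exceptions were Dnmt3b and Tet2.

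Genes of DNA replication and of mitosis were highest in TKO1 and lowest in TKO3 among the TKO tumours. The mean of 20 replication genes lay 1.05 above the DKO mean in TKO1, and -0.05 and -0.26 from it in TKO2 and TKO3 (log2 units), with the DKO tumours at 0.20, -0.16 and -0.04. The mean of the mitosis genes lay 0.74 above it in TKO1, and -0.62 and -1.57 from it in TKO2 and TKO3, with the DKO tumours at -0.23, 0.20 and 0.03. The order of the DKO tumours thus differed between the 2 lists. None of the 20 replication genes passed the test (edgeR, 0 at an unadjusted p under 0.05, median log2 fold change 0.28, 17 positive). Those with the smallest p were Tk1, thymidine kinase (187, 82.9 and 33.2 CPM in the TKO tumours, against 35.5, 45.7 and 43.6 CPM in the DKO tumours, adjusted p = 0.229), the helicase subunits Mcm5 and Mcm7 (log2 fold changes 1.09 and 0.89), and Rrm2, a ribonucleotide reductase subunit (0.98). None of 19 mitosis genes passed (edgeR, 1 at an unadjusted p under 0.05, median -0.21, 7 positive), with the checkpoint kinase Bub1 nearest (log2 fold change -1.09, adjusted p = 0.114), then Aurka (-0.90), Tpx2 (-0.89) and Top2a (-0.67). Without TKO1 6 mitosis genes and 1 replication gene were called, beside 14.6% of all genes tested in that fit.

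**Figure D3:**
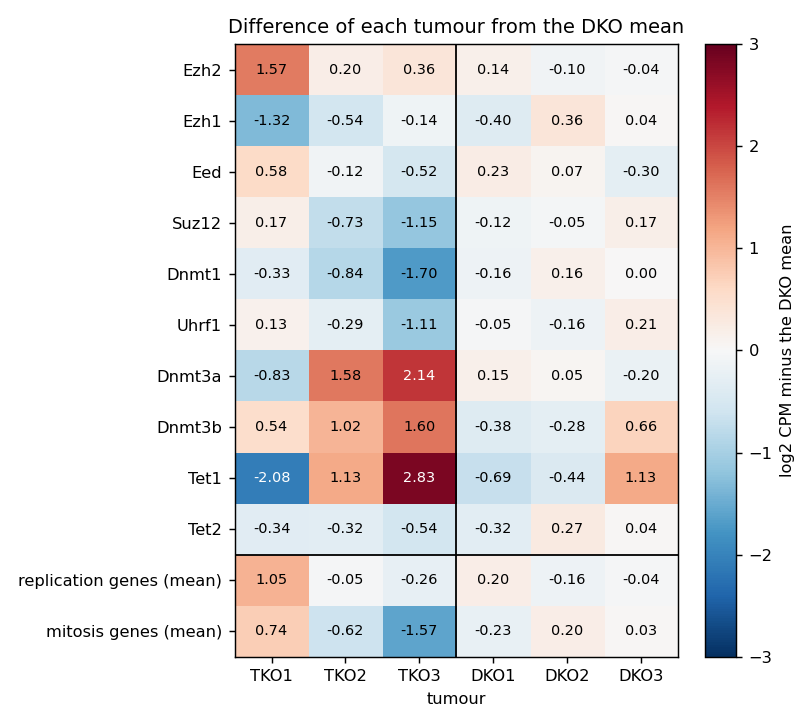
Log2 CPM of each gene in each tumour minus the mean of the 3 DKO tumours, TKO tumours at the left and DKO tumours at the right, with the mean of the replication and of the mitosis genes in the 2 bottom rows. The TKO1 column is positive for Ezh2 (1.57) and for the replication genes (1.05) and negative for Dnmt3a (-0.83) and Tet1 (-2.08), whose TKO3 cells are positive (2.14 and 2.83).

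Each member was therefore also set against the mean of the 20 replication genes of the same tumour, a measure chosen after the values were seen and given as a description. Dnmt1 lay 1.27, 1.85 and 1.21 log2 units above that mean in TKO1, TKO2 and TKO3, against 2.28, 2.96 and 2.70 in the DKO tumours. The 2 groups were apart, by -1.21 log2 units for TKO minus DKO. TKO1 was no longer near the DKO tumours, since the mean subtracted in TKO1 was itself 1.05 log2 units above the DKO mean. Suz12 was apart as well, at 0.44, 0.64 and 0.42 in the TKO tumours against 1.00, 1.43 and 1.53 in the DKO tumours (-0.82). Ezh2 was higher in TKO on this scale, at 0.64, 0.36 and 0.73 in the TKO tumours against 0.06, 0.18 and 0.12 in the DKO tumours (0.46). On this scale the groups did not overlap for 3 of 10 members, beside 25.8% of all genes tested. The other 7 members overlapped, with Uhrf1 at -0.67, Eed at -0.27 and Ezh1 at -0.92 for TKO minus DKO.

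Ratios between members within a tumour do not depend on library scaling. Of the 4 ratios set before this fit, with earlier results of these data known, only that of Uhrf1 to Dnmt1 per kilobase separated the groups. It was 1.14, 1.22 and 1.24 in the TKO tumours, against 0.896, 0.663 and 0.953 in the DKO tumours, so Uhrf1 exceeded Dnmt1 per kilobase in every TKO tumour and in no DKO tumour. Whether the ratio exceeds 1 depends on the exon bases annotated for each gene. The difference was 0.53 log2 units, with an exact two-sided permutation p of 0.1, not adjusted for the number of ratios. That is the smallest p that 3 against 3 allows, so no ratio could pass a threshold of 0.05. The ratio of Ezh2 to Ezh1 was 8.44, 1.89 and 1.60 in the TKO tumours, against 1.65, 0.823 and 1.07 in the DKO tumours (1.38 log2 units, exact permutation p = 0.2). TKO1 stood far above all others and TKO3 lay just under DKO1. The ratios of Dnmt3b to Dnmt3a (0.12 log2 units, exact permutation p = 0.8) and of Tet1 to Tet2 (0.99, exact permutation p = 0.6) overlapped between the groups.

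The remaining 5 ratios, those among the PRC2 subunits, were added after the values were seen and are given with no test. They share genes and so are not independent of each other. How often ratios of gene pairs separate the groups over all genes was not counted, for these or for the ratios above. Ezh2 to Suz12 was 0.848, 0.612 and 0.918 in the TKO tumours, against 0.386, 0.310 and 0.278 in the DKO tumours. The groups were wide apart, by 1.28 log2 units or 2.43-fold, and with each tumour left out in turn the difference stayed between 1.16 and 1.46. Ezh2 to Eed was 1.61, 1.01 and 1.50 in the TKO tumours, against 0.766, 0.721 and 0.972 in the DKO tumours (0.73 log2 units), with TKO2 close to DKO3. Suz12 to Eed was 1.90, 1.65 and 1.63 in the TKO tumours, against 1.98, 2.32 and 3.50 in the DKO tumours (-0.55), with TKO1 and DKO1 close. Ezh2 was therefore higher relative to Suz12 and to Eed in each TKO tumour than in any DKO tumour. Ezh1 to Suz12 (-0.10 log2 units) and Ezh1 to Eed (-0.65) overlapped between the groups.

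**Figure D4:**
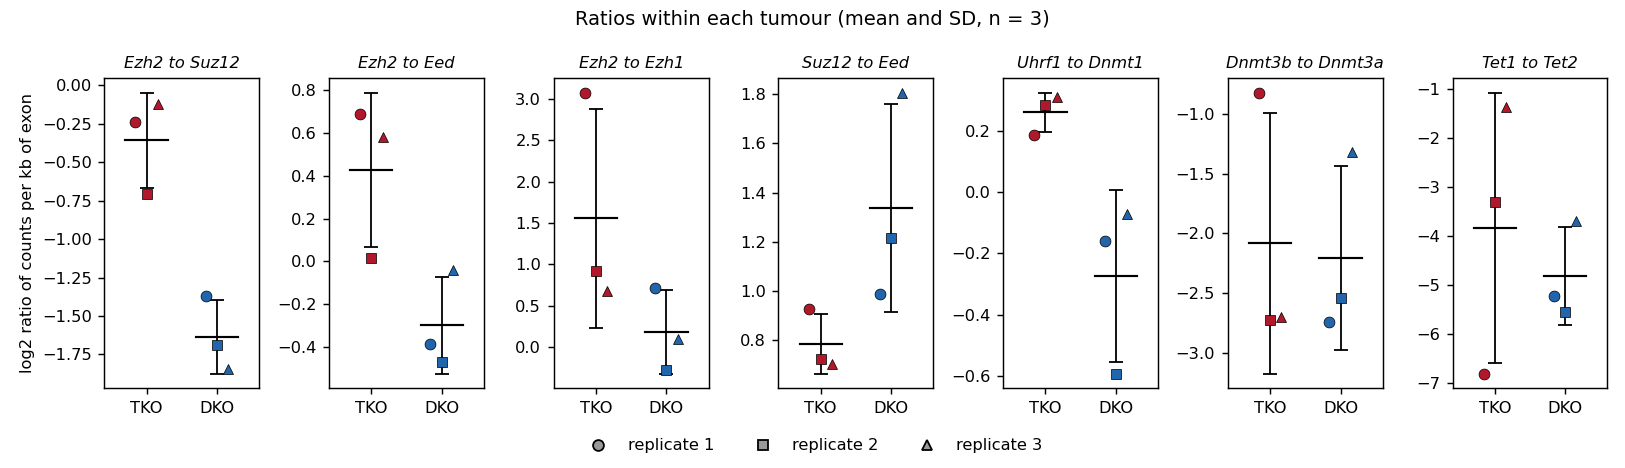
Log2 ratio of counts per kilobase of exon between pairs of members in each tumour, TKO at the left and DKO at the right of each panel, with mean and SD (n = 3). The 3 TKO tumours lie above the 3 DKO tumours for Ezh2 to Suz12 (difference of means 1.28), Ezh2 to Eed (0.73) and Uhrf1 to Dnmt1 (0.53) and below them for Suz12 to Eed (-0.55).

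Around the PRC2 core, none of 8 accessory subunits tested passed in either direction (edgeR, 0 at an unadjusted p under 0.05, median log2 fold change 0.26). The histone chaperone Rbbp4 came nearest, with 982, 277 and 270 CPM in the TKO tumours, against 265, 248 and 188 CPM in the DKO tumours (log2 fold change 1.12, adjusted p = 0.267). All 3 TKO tumours lay above the DKO tumours and TKO1 far above, the same layout as Ezh2. Aebp2 (0.37), Jarid2 (0.33) and Epop (-0.66) had adjusted p of 0.439 to 0.563.

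Of the 27 genes of Polycomb repressive complex 1, which ubiquitinates histone H2A and reads the PRC2 mark, 0 were higher and 1 was lower in TKO (edgeR, 6 at an unadjusted p under 0.05, median log2 fold change 0.11, 3 called by DESeq2). The count of 1 became 0 with library totals, with limma-voom and with a filter of 1 CPM in a library of each group. Mga, a subunit of a variant complex, had 95.4, 77.4 and 103 CPM in the TKO tumours, against 174, 198 and 174 CPM in the DKO tumours (log2 fold change -0.99, adjusted p = 0.0588). Phc2 (1.33, adjusted p = 0.123) and Phc3 (-1.40, adjusted p = 0.13), both polyhomeotic subunits, had fold changes of opposite sign.

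None of 5 tested genes for removing H3K27 methylation or H2A ubiquitin passed (edgeR, 1 at an unadjusted p under 0.05). That 1 was Kdm6b, an H3K27 demethylase, with 50.4, 54.9 and 48.6 CPM in the TKO tumours, against 81.3, 130 and 139 CPM in the DKO tumours. The groups were apart (log2 fold change -1.19, SE 0.29), and the adjusted p was 0.0548 by edgeR and 0.00754 by DESeq2. Its paralogue Kdm6a was at 0.17 and the deubiquitinase partners Asxl1 and Asxl2 at 0.04 and -0.16, with adjusted p of 0.735 to 0.94.

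Among the other genes of DNA methylation and demethylation, 0 of 12 tested were higher and 1 was lower in TKO (edgeR, 3 at an unadjusted p under 0.05, median log2 fold change -0.30). Dnmt3l, a partner of the DNMT3 enzymes without catalytic activity, had 5, 18 and 3 counts in the TKO tumours, against 74, 95 and 130 counts in the DKO tumours. In CPM that was 0.208, 0.868 and 0.153 in the TKO tumours, against 3.69, 4.85 and 7.72 in the DKO tumours, and it fell by 3.71 on the log2 scale (SE 0.86, adjusted p = 0.0479). All 3 TKO tumours lay far below the DKO tumours. It passed the filter on low counts through its DKO levels, which leaves 1 direction open to it, and no TKO tumour reached the 1 CPM that the stricter filter asks of each group, under which it was not tested. The call was also lost with the second strand column (0.111) and with TKO1, TKO3 or any DKO tumour left out (0.0598 to 0.158). Cxxc5, a zinc finger protein that binds CpG (-1.21, adjusted p = 0.166), and Tet3, the third TET enzyme (-0.76, adjusted p = 0.195), had unadjusted p under 0.05 and did not pass, and Smug1, a uracil DNA glycosylase, was at -0.60 (adjusted p = 0.309). Of 8 genes listed for the methyl-CpG binding protein families none passed (edgeR, 3 at an unadjusted p under 0.05). These were Mbd3 with 161, 141 and 166 CPM in the TKO tumours, against 110, 57.2 and 93.3 CPM in the DKO tumours (log2 fold change 0.85, adjusted p = 0.148), Zbtb4 (-1.06) and Zbtb38 (-0.73).

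Genes that PRC2 binds in stem cells, most of them developmental transcription factors, gave 13 tested of 23, with 1 higher and 1 lower in TKO (edgeR, 6 at an unadjusted p under 0.05, 6 called by DESeq2). Lhx2, a LIM homeobox factor, rose to 31.1, 25.9 and 26.9 CPM in the TKO tumours, against 4.73, 2.20 and 4.10 CPM in the DKO tumours (log2 fold change 2.92, SE 0.42, adjusted p = 0.0168). All 3 TKO tumours, TKO1 included, were alike. Gata6, a zinc finger factor of endoderm and heart, fell to 0.292, 2.07 and 0.357 CPM in the TKO tumours, against 16.4, 36.9 and 31.6 CPM in the DKO tumours (log2 fold change -4.96, SE 0.92, adjusted p = 0.0297). Both calls were lost with any DKO tumour left out (0.0627 to 0.0806 for Lhx2, 0.0795 to 0.109 for Gata6), and that of Gata6 also without TKO3 (0.0705) and with the 1 CPM filter (0.0627). Its relative Gata4 had 0, 0.241 and 0 CPM in the TKO tumours, against 0.996, 8.84 and 5.17 CPM in the DKO tumours (adjusted p = 0.0676). Gata6 and Gata4 passed the filter on low counts through their DKO levels as well. The CDK inhibitor Cdkn2b, a locus that PRC2 is known to silence, had 21.4, 26.9 and 8.62 CPM in the TKO tumours, against 81.8, 49.3 and 77.2 CPM in the DKO tumours (log2 fold change -1.87, adjusted p = 0.0612).

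Of 14 germline genes whose promoters are known to be silenced by DNA methylation, 4 passed the filter and none passed the test (edgeR, 0 at an unadjusted p under 0.05). Mael, Tex101, Hormad1, Slc25a31 and Tex19.1 were at 0 in every TKO and every DKO library, and Dazl had 0, 2 and 3 counts in the TKO tumours and 0 in every DKO tumour. The tested genes were the tudor protein Tdrkh with 14.8, 10.8 and 5.46 CPM in the TKO tumours, against 2.74, 16.4 and 11.5 CPM in the DKO tumours (log2 fold change 0.02), Taf7l (-1.92, SE 0.96), Ddx4 (-1.69, SE 1.17) and Sycp1 (-2.01, SE 2.09). The last 3 stayed under 7 CPM in every tumour and varied widely within the groups. DESeq2 and limma-voom likewise called none of the germline, PRC2 accessory, methyl-CpG binding, replication and mitosis genes.

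The genes most like 4 of the members across the 6 tumours are given as a description, by Pearson r of log2 CPM, among the 12072 genes whose mean log2 CPM was 1 or more. Nearest to Ezh2 was Akr1b3, an aldose reductase (r = 0.999), with 602, 84.3 and 105 CPM in the TKO tumours, against 77.1, 59.1 and 62.8 CPM in the DKO tumours, followed by Gm26532 and Cnot9. Nearest to Ezh1 were Chd8, a chromatin remodeller (r = 0.995), Ftl1 and Safb2. Nearest to Dnmt1 was the ceramide synthase Cers6 (r = 0.999), with 74.7, 38.7 and 11.5 CPM in the TKO tumours, against 94.3, 141 and 131 CPM in the DKO tumours, followed by Prr11 and the nucleoporin Nup155. Nearest to Tet2 were Fbxl12 (r = 0.998), Mettl26 and Slit1. For Ezh2 the likeness rests mostly on TKO1, the 1 tumour in which it and Akr1b3 were far above the rest. The r rests on 6 points, chosen as the highest of all genes compared.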

How the data were processed

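Polyadenylated RNA of 6 mouse osteosarcomas was sequenced. The authors deposited whole-number gene counts per library, and the submitters' processing notes name STAR 2.6.1 and mm10. The annotation release behind them is not stated in the sources used here; gene positions here are from GENCODE vM21 (GRCm38). The counts of the either-strand column were used, since reads split about evenly between strands (50.16% to 51.3% on the first). The series table and the library files differed in 0 values. Symbols from the reference table matched 55240 of 56196 IDs.

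Groups came from the genotype labels. Genes were kept with edgeR's filterByExpr (minimum count 10), scaled by TMM and tested with edgeR 4.0.16 quasi-likelihood F tests (R 4.3.3), TKO against DKO, with Benjamini-Hochberg adjustment over all 15361 genes and a threshold of 0.05. CPM used TMM-scaled library totals. Ratios used counts per kilobase of all annotated exon bases of the gene, not of its expressed transcripts, and exact permutation over 20 assignments. The fit was tested on simulated data in 3 runs. It called 16% of the genes changed 4-fold and 77.3% of those changed 16-fold, with 6.67 false calls per run. Alternatives were DESeq2 1.42.0, limma-voom (limma 3.58.1), other scalings and filters, a replicate block, sex, the second strand column and leaving out each tumour. P-values measure the spread between these tumours.

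The members and lists were chosen with earlier results of these data known. All members are named, and from each pathway, proliferation and target list the 4 tested genes with the smallest p, with the 3 genes most like Ezh2, Ezh1, Dnmt1 and Tet2 by r; marker genes of cell types and genes listed at 0 are named outside that rule. Kif11 and Mat2a had at most 1 count in all libraries and were not tested. Some genes that the naming rule picks are not reported here.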

Additional observations from a re-analysis of the deposited data

How the results depend on the processing

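The count of genes called, 1131 by the fit reported, was 146 with a filter of 1 CPM in a library of each group, 2893 by DESeq2 and 295 with the replicate block, and between 0 and 2385 with each tumour left out in turn, 0 without DKO3 (3017 at an unadjusted p under 0.05) and 2385 without TKO1. Calls higher in TKO made up 66.4% with all tumours and 46.58% under the 1 CPM filter. The count of members called lay between 0 and 1 with each tumour left out (1, Dnmt3a, without TKO1) and was 0 under every other setting. Eed, at 0.037, changed sign by limma-voom (-0.015), with the replicate block (-0.020), with sex as a term (-0.018) and with the second strand column (-0.0065), and lay between -0.33 and 0.26 with each tumour left out. With each tumour left out, the log2 difference between groups lay between -0.51 and 0.56 for Dnmt3b to Dnmt3a, -0.24 and 2.48 for Tet1 to Tet2, and -0.66 and 0.60 for Ezh1 to Suz12; relative to the replication genes it lay between -0.13 and 2.01 for Dnmt3a and -0.98 and 2.13 for Tet1. The sign of every other member and ratio was kept under every setting run. The causes were not tested.

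The same replicate numbers did not pair the tumours: deviations from the group means correlated at -0.0070, 0.0089 and -0.017 for the same-numbered pairs. With the replicate block 0 members were called, and the call of Dnmt3l was lost (adjusted p = 0.101). Each group has 1 male, so no comparison within the males was possible, and the depth of Tet1 (9 counts in TKO1) limits its value.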
